A study of Saccharomyces cerevisiae with 6 samples.

Results

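The label that yeast transcripts still carried after close to an hour of chase was measured gene by gene in 6 cultures of Saccharomyces cerevisiae, 3 with UPF3 deleted and 3 wild type. For each gene and culture, the share of T bases read as C in the last chase library was set over that share at the start of the chase, after the share in an unlabelled library of the same culture had been subtracted from both. A gene entered when it had at least 200 reads in each of the 18 libraries this needs, which held for 3528 of 5560 genes. The values below are percentages of the label at time 0, called the label left.

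Every culture gave 7 libraries, 1 from DMSO-treated cells and 6 from cells labelled with 4-thiouracil (4TU) and chased. Both genotypes share the BY4741 laboratory background, and the deletion strain is BY4741 without UPF3. The sources describe the cultures as biological triplicates and say nothing more of how they were obtained. The deposited chase times carry no unit and were read as minutes, and the last one fell between 57.45 and 58.08 (mean 57.7).

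In such SLAM-seq experiments, cells build 4TU into new RNA, and alkylation makes the modified bases read as C in place of T. When the label is withdrawn, the labelled share of a transcript shrinks as old molecules decay and as new unlabelled ones join them, so loss and dilution cannot be told apart in a share. Most yeast mRNAs are shortened at the poly(A) tail, decapped and digested from the 5′ end, and their lifetimes range widely, with transcripts of ribosomal proteins and glycolytic enzymes long known as stable. UPF3 acts with UPF1 (NAM7) and UPF2 (NMD2) in nonsense-mediated decay (NMD), which removes transcripts whose translation ends too early.

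UPF3 itself had 3.33, 3.29 and 3.49 CPM (reads scaled to the library total) at time 0 in the 3 deletion cultures, against 21.9, 32.1 and 31.6 in the 3 wild type cultures. It stayed under the read minimum and is not among the 3528 genes. The 18 libraries held 11647559 to 17180217 reads each, and the share of T bases converted was 0.0249 to 0.0357% in DMSO, 2.53 to 2.77% at time 0 and 0.164 to 0.204% at the end. BY4741 is an a strain, and of 5 a-cell markers MFA1, MFA2 and STE2 had 333.3 to 2386.2 CPM at time 0, BAR1 49.9 to 113.5 and STE6 15.8 to 139.6. Of 4 alpha-cell markers, the pheromone genes MF(ALPHA)1 and MF(ALPHA)2 had 0 to 1.78 CPM, STE3 7.24 to 29.5 and SAG1 6.95 to 48.5. STE6 was lowest in deletion culture 1, where its 15.8 CPM lay below the 29.5 of STE3, and SAG1 was highest in deletion cultures 2 and 3, at 48.5 and 44.9 CPM. MFA1, MFA2, BAR1 and STE6 were lower in every deletion culture than in any wild type one, and STE3, SAG1 and MF(ALPHA)1 were higher. STE2 and MF(ALPHA)2 overlapped between genotypes. MFA1 had 525.5, 333.3 and 372.5 CPM in the deletion, against 972.5, 874.5 and 806.6 in wild type. STE3 had 29.5, 14.8 and 20.5, against 14.3, 9.16 and 7.24. The reason for these differences was not tested. Of the genes BY4741 lacks, MET17 had at most 0.239 CPM, LEU2 at most 1.33 and URA3 at most 13.4. HIS3 had 82.1 to 185.2, and because its allele is deleted only in part and reads come from 3′ ends, that value checks nothing. The identifiers of the 7 libraries of deletion culture 1 recur in the table of deletion culture 2, and those of deletion culture 3 recur in that of wild type culture 1; what they stand for is not stated. In both genotypes culture 1 stood apart, with the widest spread over genes.

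Across genes, little label was left. The mean over 6 cultures had a median of 3.00% of the starting label over the 3528 genes, with 5% of genes under 1.35% and 5% over 7.11%. At the chase point before, at a mean of 17.9 min, the median had been 27.0%. The median gene had 3.54, 2.85 and 2.90% of its label left in deletion cultures 1, 2 and 3, against 2.68, 2.92 and 3.08% in wild type cultures 1, 2 and 3. The genotypes overlapped, and the means of 3.10% ± 0.386 in the deletion and 2.89% ± 0.201 in wild type (SD, n = 3 cultures each) differed by 0.207 percentage points (two-sided exact permutation test, p = 0.700, where 3 against 3 cultures cannot go below 0.1). Without deletion culture 1 that difference was −0.0151 percentage points.

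So small a remainder was measured well only for abundant transcripts. At the end of the chase 1025 genes (29.1%) had a value at or below 0 in at least 1 culture, and none did in all 6. Deletion cultures 1, 2 and 3 had 253, 160 and 72 such genes, against 513, 220 and 77 in wild type cultures 1, 2 and 3. For the 1735 genes whose poorest library held at least 200 but fewer than 500 reads, the median SD over cultures was 2.35 percentage points, close to the size of the label left itself. For the 258 genes with 5000 reads or more it was 0.698, with a median counting error of 0.222. Spearman's rho between the gene values of 2 cultures ran from 0.90 to 0.97 over those 258 genes and from 0.15 to 0.39 over all 3528, values that share the genes and say how repeatable the order was. Counting errors cover the number of T bases only, and converted T bases of the same read are not independent.

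A small set of transcripts ranked high in every culture. Of the 3528 genes, 21 (0.595%) were among the highest 5% in all 6 cultures, and a further 19 were so in 5. These 21 were TDH1, IPP1, SWC5, TDH3, RPL41B, HAP1, TEF2, RPL41A, FPR1, EFT1, RPS14A, RPL28, VMA2, ENO2, RPL1A, RPS25A, RPL43A, RPS2, HAC1, ASC1 and RPS17A. Cytosolic ribosomal proteins make up 9 of them and genes of glycolysis and fermentation 3, beside 137 and 19 of all 3528 genes. Ranking high in every culture favours well-measured genes, and 16 of the 21 had 5000 reads or more, a class in which 127 of 258 genes encode ribosomal proteins. By mean the 21 are not set off from other genes, since 45 genes averaged above 10%. In 12 genes the label left was above 10% in all 6 cultures.

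TDH3 (YGR192C, chromosome VII, 882812 to 883810, build R64) encodes the main glyceraldehyde-3-phosphate dehydrogenase of glycolysis. It had 23.5, 20.9 and 22.2% of its label left in the 3 deletion cultures, against 18.1, 19.7 and 20.6% in wild type. All 3 deletion values were above the wild type ones, by a narrow margin, and each rests on 18790 or more converted T bases. Its paralogue TDH1 (YJL052W, chromosome X, 338271 to 339269) had 28.9, 28.9 and 24.6% left in the deletion, against 19.8, 19.2 and 21.1% in wild type. That is 27.5% ± 2.46 and 20.1% ± 0.961 (SD, n = 3 each), and the groups did not overlap. At time 17.9 these transcripts still carried 82.0 and 88.4% of their label.

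IPP1 (YBR011C, chromosome II, 257112 to 257975), the essential inorganic pyrophosphatase, had 34.1, 22.4 and 22.5% left in the deletion, against 18.9, 18.4 and 20% in wild type. Deletion culture 1 was far above the other 5. RPL41B (YDL133C-A, chromosome IV, 221724 to 221801) and RPL41A (YDL184C, chromosome IV, 130407 to 130484) encode the same tiny protein of the large ribosomal subunit. RPL41B had 24.9, 21.5 and 21.4% left in the deletion, against 19.6, 18.3 and 19.1% in wild type, and RPL41A 19.1, 15.7 and 16.8%, against 13.8, 12.8 and 14.1%. Both were above wild type in every deletion culture, and in all 6 cultures the B copy was above the A copy.

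Translation elongation was represented by TEF2 (YBR118W, chromosome II, 477671 to 479047), a gene of elongation factor eEF1A, and EFT1 (YOR133W, chromosome XV, 575098 to 577626), a gene of eEF2. TEF2 had 19.1, 16.2 and 17.4% left in the deletion, against 15.1, 15.5 and 16.2% in wild type. EFT1 had 17.1, 13.7 and 16.0%, against 14.1, 11.7 and 14.3%. In both genes the ranges of the genotypes overlapped. FPR1 (YNL135C, chromosome XIV, 371882 to 372226), the peptidyl-prolyl isomerase that binds rapamycin, had 16.6, 14.7 and 16.0%, against 12.2, 14.4 and 15.2%.

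The small-subunit proteins RPS14A and RPS25A were the steadiest of the 12 highest genes. RPS14A (YCR031C, chromosome III, 177500 to 178220) had 14.4, 12.1 and 12.7% left in the deletion, against 12.8, 12.1 and 13.2% in wild type, 12.9% ± 0.859 over the 6 cultures. RPS25A (YGR027C, chromosome VII, 534132 to 534458) had 11.6, 10.2 and 10.8%, against 10.5, 10 and 10.7%, 10.6% ± 0.536 over 6. The genotypes overlapped in both. Further down, ENO2, the main enolase, had 11.5% ± 1.20 left, and VMA2, the B subunit of the vacuolar ATPase, 11.8% ± 2.36. HAC1, the unfolded protein response regulator whose mRNA is spliced outside the nucleus, had 10.1% ± 1.31, and ASC1, the ribosome-bound RACK1 protein, 9.96% ± 1.26 (SD, n = 6 cultures each).

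**Figure D1:**
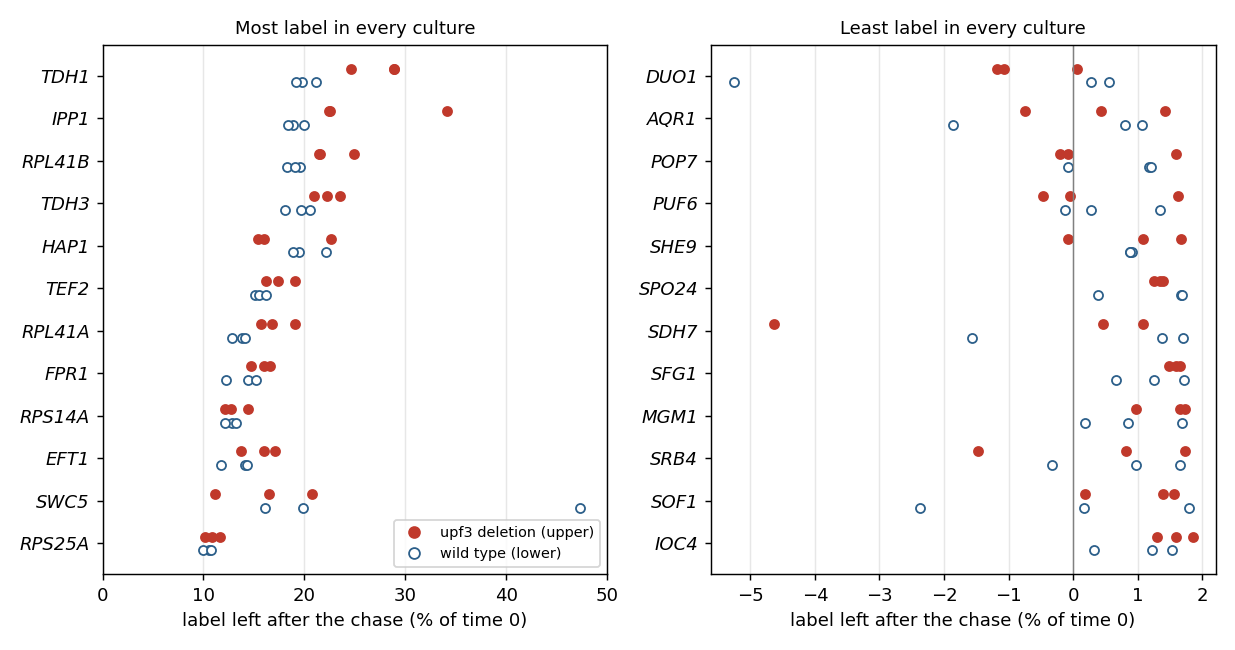
Label left at the end of the chase (percent of time 0, linear x axes) for the 12 genes with the highest lowest-of-6 value (left panel) and the 12 with the lowest highest-of-6 value (right panel). Each point is 1 culture, upf3 deletion as filled points above and wild type as open points below. TDH1, IPP1, RPL41B, TDH3 and RPL41A had all 3 deletion points above the wild type ones. In the right panel SPO24, SFG1, MGM1 and IOC4 were above 0 in all 6 cultures, and the other genes fell below 0 in at least 1.

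Some values among the extremes carry a measured reservation, and its part in the results was not tested. HAP1, the heme-responsive transcription factor, had 22.6, 15.4 and 16.0% left in the deletion, against 19.5, 18.9 and 22.1% in wild type, but up to 98.0% of its reads mapped to several places, and YLR256W-A, a Ty1 reading frame, follows 193 bases after it. YCL021W-A, with the highest mean of all at 28.4%, had 22.6, 34.0 and 41.0%, against 2.85, 36.9 and 32.8%, with up to 66.8% such reads. SWC5, a subunit of the SWR1 chromatin remodeller, had 20.7, 16.5 and 11.1%, against 47.3, 19.9 and 16.1%, on 22 to 71 converted T bases. The gene of the U2 small nuclear RNA, LSR1, lies 316 bases downstream of it on the same strand.

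The early and the late part of the chase did not order the transcripts that kept much label alike. Over the 258 genes with 5000 reads or more, the label left at time 17.9 and at the end had a Spearman's rho of 0.91, from the same libraries and the same starting value. Yet 11 of those genes had between 75 and 90% left at time 17.9 and spread from 6.42 to 22.7% at the end. The pyruvate decarboxylase gene PDC1 had 75.2% ± 3.14 at time 17.9 and 6.42% ± 0.702 at the end, whereas TEF2 had 76.1% ± 2.90 and 16.6% ± 1.46 (SD, n = 6). PGK1, phosphoglycerate kinase, had 76.2% and 7.17%, and RPL41B 78.4% and 20.8%. CDC19, the main pyruvate kinase, stood between them with 80.1% and 11.8%, and GPM1, phosphoglycerate mutase, with 76.8% and 9.94%. NNR2, which encodes an NAD(P)HX dehydratase, had 75.9% and 9.81%. ENO1, an enolase copy, had 86.7% ± 2.22 at time 17.9, above TDH3, and 5.71% ± 1.46 at the end.

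Expressed as halvings of label per 10 min, the median gene lost 1.05 ± 0.08 up to time 17.9 and 0.80 ± 0.03 after it, slower in the later interval in all 6 cultures. Ribosomal protein transcripts, which encode the structural proteins of the cytosolic ribosome, showed the opposite order, 0.42 ± 0.02 and then 0.83 ± 0.04 at their median. The enzymes of glycolysis and fermentation likewise had 0.29 ± 0.04 and then 0.89 ± 0.03. Both were faster in the later interval in all 6 cultures. ENO1 had 0.12 ± 0.02 early and 1.00 ± 0.11 late, and TDH3 0.16 ± 0.02 and 0.50 ± 0.03. MFA2, the a-factor pheromone gene and a classic unstable transcript, had 1.28 ± 0.08 and 0.81 ± 0.03. Of the genes with a reservation above, HAP1 had 0.63 ± 0.16 early and 0.32 ± 0.08 late, and SWC5 0.92 ± 0.15 and 0.18 ± 0.16 (SD, n = 6 cultures).

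**Figure D2:**
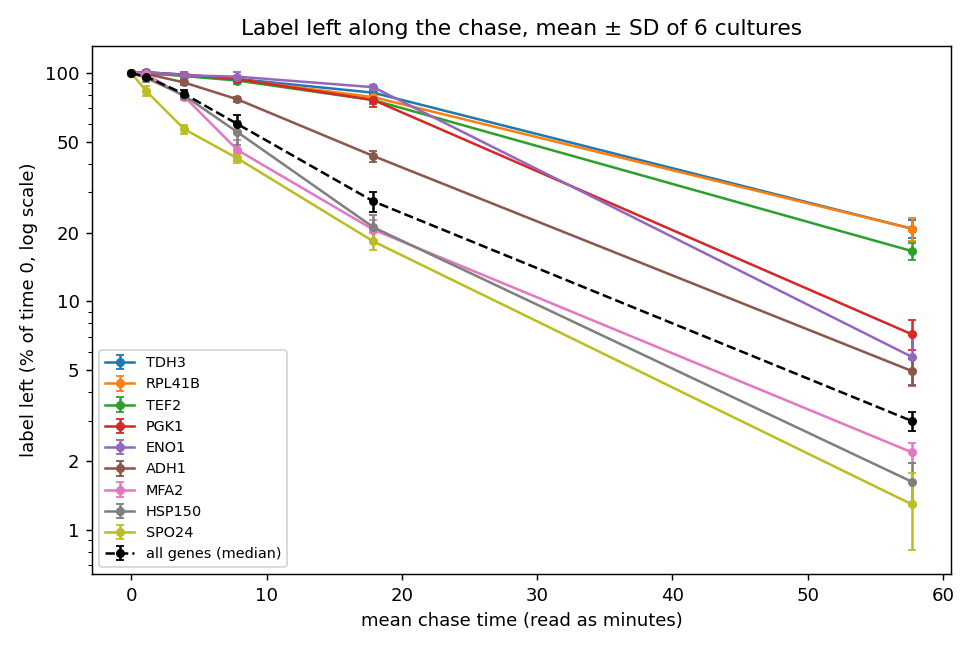
Label left along the chase for 9 genes and for the median of all genes (y axis, percent of time 0, log scale; x axis, mean chase time read as minutes). Points are means and bars SDs of 6 cultures; PGK1, ENO1, TEF2, RPL41B and TDH3 lie between 76.1 and 86.7% at time 17.9 and between 5.71 and 20.8% at the end.

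Because the share also reflects new synthesis, it was set beside the change in CPM over the chase. TDH1 had a log2 ratio of CPM at the last point to CPM at time 0 of −2.12, and ENO1 one of −2.08. When the label left was multiplied by the change in reads, TDH1 came to 5.50% ± 1.22 of its starting label and ENO1 to 1.36% ± 0.445. For ADH1, the fermentative alcohol dehydrogenase, the log2 ratio was 1.59, and its 4.95% ± 0.631 became 15.3% ± 4.48. RPL41B, TDH3 and IPP1 moved little, to 23.6% ± 5.95, 17.5% ± 3.45 and 20.1% ± 6.14, and TEF2 came to 24.9% ± 13.8 (SD, n = 6). CPM are relative to the library, so this product holds only if total mRNA stayed the same, which was not measured.

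At the other end no gene was among the lowest 5% in all 6 cultures (0%), and 2 were so in 4 cultures. The 12 genes with the lowest highest-of-6 value were DUO1, AQR1, POP7, PUF6, SHE9, SPO24, SDH7, SFG1, MGM1, SRB4, SOF1 and IOC4. All but SPO24 rest on 28 or fewer converted T bases per last library. DUO1, of the DASH complex at kinetochores, had −1.07, −1.18 and 0.0623% in the deletion, against −5.26, 0.278 and 0.561% in wild type. Its wild type culture 1 had 0 converted bases of 8536, which allows up to 1.14% of the starting label on 3 counts. SDH7 had 0 in wild type culture 1 as well, and the Mediator subunit SRB4 in deletion culture 2 and wild type culture 1, with limits of 1.03 to 1.17%. PUF6 and SOF1 act in ribosome assembly, POP7 in RNase P and RNase MRP, and MGM1 in mitochondrial fusion.

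SPO24 (YPR036W-A, chromosome XVI, 645950 to 646153), a small protein gene linked to sporulation, was the exception, with 115 to 280 converted T bases. It had 1.39, 1.25 and 1.34% left in the deletion, against 0.383, 1.67 and 1.69% in wild type. Wild type culture 1 was lowest, and the other 5 lay between 1.25 and 1.69%. It was also among the quickest early, with 83.4% left at time 1.11, 56.8% at 3.92 and 18.3% at 17.9.

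Looking at the 258 genes with 5000 reads or more, a set chosen after the values were seen, 7 were among the lowest 10% in all 6 cultures. These were HHT1, URA1, MFA2, YNL146W, SPO24, TOM5 and NCE102. HHT1, a histone H3 gene, had 2.72, 0.891 and 1.61% left in the deletion, against 1.33, 1.76 and 2.31% in wild type. MFA2 (YNL145W, chromosome XIV, 352414 to 352530) had 2.60, 2.08 and 2.14%, against 1.97, 2.21 and 2.08%. The genotypes overlapped in both. URA1, the dihydroorotate dehydrogenase of pyrimidine synthesis, had 1.99% ± 0.374, NCE102, an eisosome protein, 2.05% ± 0.310, and TOM5, of the mitochondrial import pore, 1.81% ± 0.832 (SD, n = 6). Of the 12 with the lowest highest-of-6 value among the 258, 5 encode core histones, HTA1, HTB1, HHT1, HHT2 and HHF2, with means of 1.77 to 2.18%, beside 8 histone genes among all 258.

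With a minimum of 1000 reads, which 993 genes passed, the genes with the lowest highest-of-6 value after SPO24 were HSP150, DPI8, HTA1, LAG1, RLP24, RPC19, DBP2, PAM16, NMD3, QCR6 and EXG1. HSP150, a secreted cell wall protein, had 1.4, 1.86 and 1.61% left in the deletion, against 1.06, 1.90 and 1.86% in wild type. RLP24 and NMD3 act in assembly and export of the large ribosomal subunit and had 1.53% ± 0.505 and 1.5% ± 0.481. RPC19, a subunit shared by RNA polymerases I and III, had 1.48% ± 0.591, and the RNA helicase DBP2 1.33% ± 0.993 (SD, n = 6). EXG1, a cell wall glucanase, had 1.32, 1.25 and 1.59%, against 2.37, 2.17 and 1.72%, without overlap between the genotypes.

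Genes often used as stability standards covered a wide range. PGK1 had 9.20, 7.23 and 6.85% left in the deletion, against 5.98, 6.77 and 7.01% in wild type, and actin, ACT1, had 7.95, 5.91 and 6.71%, against 7.69, 7.41 and 7.06%. Their means of 7.17% ± 1.08 and 7.12% ± 0.741 do not differ beyond their spread. CLN3, a G1 cyclin gene, had 3.30% ± 1.20 on as few as 8 converted T bases. STE2, the alpha-factor receptor, had 3.66, 3.06 and 3.61% in the deletion, against 1.81, 2.96 and 2.35% in wild type. HTB1, histone H2B, had 1.35, 1.89 and 1.87%, against 2.35, 2.52 and 2.72%. STE2 was above and HTB1 below wild type in all 3 deletion cultures, and neither passed the test over all genes given below. By their means the order was TDH3, PGK1, ACT1, ADH1, CLN3, STE2, MFA2 and HTB1, in which CLN3 and STE2, and likewise MFA2 and HTB1, lay within an SD of each other.

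Gene groups differed in the same way. By definition 10% of the 3528 genes lie in the highest 10%, as many in the lowest and 50% above the median of 3.00%. Of 137 cytosolic ribosomal protein genes, 128 were above that median, 78 were in the highest 10% and 1 in the lowest. Their median was 6.09%, and it was above the all-gene median in all 6 cultures, at 7.01, 5.24 and 5.89% in the deletion, against 5.69, 5.86 and 6.36% in wild type. Glycolysis and fermentation followed with a median of 5.71% over 19 genes, of which 17 were above the median and 10 in the highest 10%. ADH5 was the group's member in the lowest 10%, at 1.27% ± 1.72, and PFK2, a phosphofructokinase subunit, had 2.24% ± 1.21. The proton pump of the vacuole, with 16 genes, had a median of 4.12%, and 13 genes lay above the median. Its VMA2 and VMA4 were high at 11.8 and 9.65%, and VPH1, the vacuolar form of the a subunit, was low at 2.48% ± 0.363.

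Intermediate groups were the tRNA synthetases with a median of 3.22% over 20 genes, heat shock proteins and chaperones with 3.25% over 27, and stress, trehalose and glycogen genes with 3.39% over 27. GUS1, the glutamyl-tRNA synthetase, stood out of its group with 7.54, 13.6 and 14.7% in the deletion, against 8.59, 8.64 and 12.6% in wild type. DDR48, a stress-induced gene, had 9.5% ± 1.02, while the trehalose synthesis genes TSL1 and TPS2 had 1.54% ± 3.48 and 1.68% ± 2.70 (SD, n = 6). The means of TSL1 and TPS2 were lowered by wild type culture 1, at −4.74 and −3.72%. In the other cultures TSL1 had 0.383 to 5.37% and TPS2 1.73 to 3.19%. Translation factors had a median of 2.86% over 35 genes, below that of all genes, although the group's median within each culture was above that culture's in all 6. Of those 35, 6 were in the highest 10%, led by TEF2 and EFT1, and the initiation factors TIF3 and SUI2 were lowest at 1.86 and 1.98%. Amino acid synthesis genes had 2.92% over 46, with ILV6, the regulatory subunit of the first step of branched-chain synthesis, at 10.2% ± 2.58.

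The lowest of the larger groups was ribosome biogenesis, the factors that process ribosomal RNA and assemble its particles. Of 79 genes 9 were above the median and 28 in the lowest 10%, with a median of 1.99%. Within cultures that median was 2.45, 1.61 and 1.70% in the deletion, against 1.74, 1.95 and 2.14% in wild type, under the all-gene median in all 6. UTP13 and RRP14 were lowest by mean at 0.226% ± 2.19 and 0.291% ± 5.0, spreads wider than the values. Wild type culture 1 had −4.02 and −9.75% for them, and the other cultures 0.505 to 2.36% and 1.43 to 3.95%. Their low means thus rest on that culture. IPI3 was highest at 5.89% ± 3.52. Structural proteins of the ribosome and the factors that build it thus stood at opposite ends, with medians of 60.1 and 23.4% already at time 17.9. Histone genes had a median of 2.26%, with 1 of 11, HTB2, above 3.00%. Amino acid permeases had 2.21%, with 1 of 13 above it, and deadenylation and exosome genes 2.18%, with 8 of 23 in the lowest 10%.

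Among nuclear genes of mitochondria, the mitochondrial ribosomal proteins had a median of 2.81% over 61 genes, with 11 in the lowest 10% and 1, MRP49, in the highest. Respiration and the citric acid cycle had 2.53% over 44, with 12 above the median and none in the highest 10%, and transcripts bound by Puf3 2.39% over 21. LSC2, a succinyl-CoA ligase subunit, was the highest respiratory gene at 4.79% ± 2.80, and CYT1, cytochrome c1, the lowest at 1.44% ± 1.01. Proteasome genes had 2.42% over 34, and RPN4, the transcription factor that drives them, was lowest at 0.0760% ± 2.51. RPN4 had −3.51% in deletion culture 1 and −2.47% in wild type culture 1, and 0.598 to 2.76% in the other cultures. Cell wall genes had 2.59% over 33, with SCW4 at 7.78% and DSE4, a daughter-cell glucanase, at 1.14%. Hexose transporters had 2.09% over the 4 genes measured, none above 3.00%, although their CPM had a median log2 ratio of −0.84 over the chase.

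The remaining lists held between 3 and 31 measured genes. Those above 3.00% at their median were transcription factors with 3.22% over 30, iron and copper genes with 3.67% over 11, and secretion and membrane transport with 3.05% over 31. Those below it were cyclins and cell cycle with 2.92% over 18, ergosterol synthesis with 2.97% over 24, pyrimidine genes with 2.89% over 12, a-cell and pheromone genes with 2.76% over 14, and sulfur and methionine genes with 2.69% over 12. Decapping and 5′ decay genes had 2.59% over 14, RNA polymerase I and III 2.51% over 17, phosphate genes 2.50% over 10 and subtelomeric genes 1.73% over 3. The stability standards as a list had 4.13% over 14, a list gathered from transcripts known for both extremes.

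**Figure D3:**
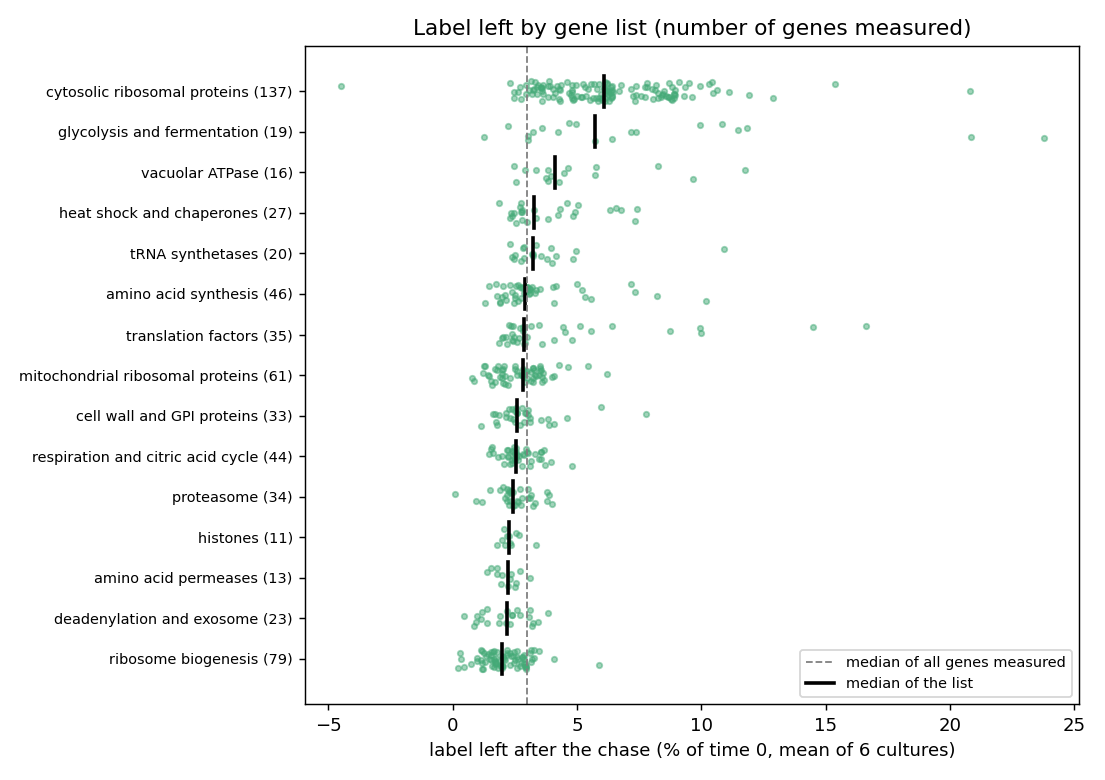
Label left at the end of the chase (x axis, percent of time 0, mean of 6 cultures) for the genes of 15 lists (rows, number of genes measured in brackets). Each point is a gene, black bars are list medians and the dashed line is the median of all 3528 genes; ribosomal proteins (6.09%) are at the top and ribosome biogenesis genes (1.99%) at the bottom.

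Within the ribosomal proteins the spread was wide, and copies of the same gene often differed. The medians of the small subunit (5.85%, 56 genes) and the large subunit (6.10%, 76 genes) were close, and the 5 stalk proteins had 8.78%. Most ribosomal proteins of yeast are encoded by a pair of genes left from a genome duplication, and 58 pairs had both copies measured with a mean above 0. In 49 pairs the same copy had more label left in all 6 cultures. The median ratio of the higher to the lower copy was 1.86, and 24 pairs differed by more than 2-fold, each in the same order in all 6 cultures. The copy with more reads was also the one with more label in 50 of 58 pairs, and copy A was the higher one in 40.

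RPS9 had the largest ratio, 3.84. RPS9B (YBR189W, chromosome II, 604508 to 605508) had 9.51, 7.76 and 8.91% left in the deletion, against 8.29, 9.16 and 9.80% in wild type. RPS9A (YPL081W, chromosome XVI, 404950 to 406044) had 3.23, 0.552 and 2.10%, against 3.17, 2.01 and 2.85%. The copies did not overlap in any culture, while the genotypes overlapped for each copy. For RPS14 the A copy had 12.9% ± 0.859 and the B copy 3.60% ± 0.686, a ratio of 3.57, and for RPL7 the A copy had 9.30% ± 0.916 and the B copy 2.61% ± 0.663. RPL15A had 8.59% and RPL15B 2.45%, RPL33A 8.88% and RPL33B 2.75%, and RPL43A 10.5% and RPL43B 3.32%. RPL13 and RPL8 resembled RPS9 in that the B copy was higher, at 8.48 and 8.69%, against 3.37 and 3.53% for the A copy. Reads mapping to several places were at most 1.19% in the pairs named here, so few of the reads counted were flagged as shared between copies.

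**Figure D4:**
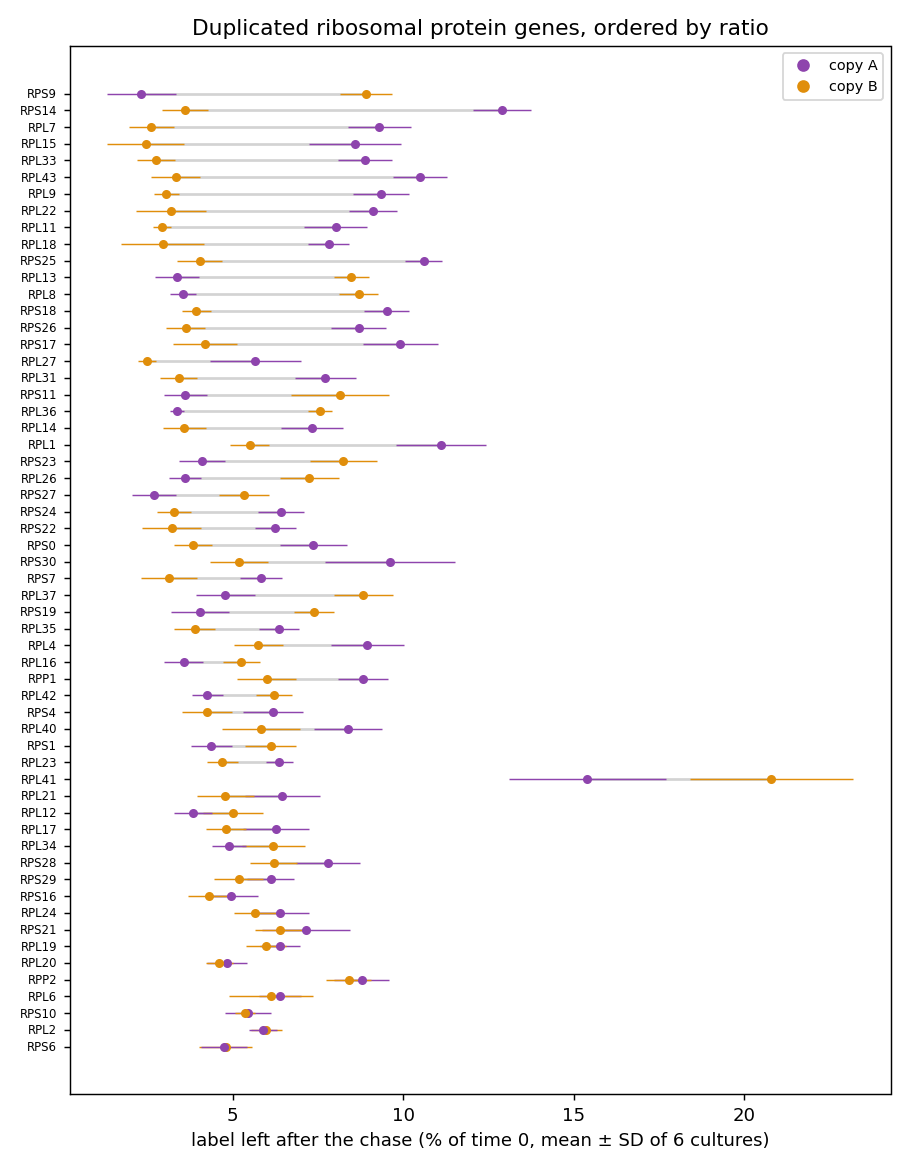
Label left (x axis, percent of time 0) for both copies of 58 ribosomal protein gene pairs, ordered by the ratio of the higher to the lower copy from top to bottom. Points are means and bars SDs of 6 cultures, copy A in purple and copy B in orange; the top rows, from RPS9 (8.91 and 2.32%) and RPS14 (12.9 and 3.60%), have well separated copies, and those at the bottom, such as RPL2 (5.98 and 5.89%), do not.

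Some duplicated genes outside the ribosome also had copies with unlike amounts of label left. TEF2 had 16.6% ± 1.46 left and TEF1, which encodes the same eEF1A protein, 6.41% ± 0.730. EFT1 and EFT2, a pair for the same eEF2 protein, had 14.5% ± 1.90 and 4.50% ± 0.396. Both genes of each pair had at least 3245 reads in every library, and the order held in all 6 cultures. The glyceraldehyde-3-phosphate dehydrogenases split into TDH1 (23.8% ± 4.40) and TDH3 (20.8% ± 1.90) on the high side and TDH2 (3.58% ± 0.583) on the low side, and the enolases into ENO2 (11.5%) and ENO1 (5.71%) (SD, n = 6). TDH2 had been at 54.7% at time 17.9. These pairs were picked after their values were seen and carry no test.

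The transcripts with most label left were close to other genes in some features and not in others. Among genes with 1000 reads or more, the 50 highest had a median gene length of 790 bases, against 768 for all 993, a T content of the counting window of 32.9%, against 31.4%, and a starting conversion rate of 2.60%, against 2.61%. They differed more in their earlier label, 68.6% at time 17.9, against 37.4%, in abundance, with 2153.1 CPM at time 0, against 277.5, and in the log2 change of CPM over the chase, 0.26, against −0.17. Ribosomal proteins made up 26 of the 50, against 136 of the 993. The 50 lowest had 23.4% left at time 17.9, with 1 ribosomal protein and 5 ribosome biogenesis genes, against 136 and 17 of the 993. Their DMSO rate, which is subtracted, had a median of 0.0369%, against 0.0279% for the 993. Its part in the rank of these 50 was not tested. Across deciles of CPM at time 0, the top one had a median label left of 4.25%, or 3.37% without its ribosomal proteins, against 2.75 to 3.10% in the other 9.

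The deletion and wild type were then compared gene by gene, which asks whether transcripts lose label differently without UPF3. No gene passed an adjusted p of 0.05 in either direction (limma on log2 of label left plus 1 percentage point, Benjamini-Hochberg over 3528 genes; 0% higher and 0% lower in the deletion, lowest adjusted p 0.119). At an unadjusted p under 0.05, 167 genes (4.73%) were higher and 65 (1.84%) lower. A test with edgeR on converted T bases, in which the DMSO rate was not subtracted, called 0 and 0 genes, with 123 and 50 unadjusted. In 268 genes (7.60%) all 3 deletion cultures were above all 3 wild type ones, and in 150 (4.25%) all were below. The median log2 difference over all genes was 0.06.

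The 5 genes with the lowest p were SWP82, LRS4, ACF4, TDH1 and PPM1. SWP82 (YFL049W, chromosome VI, 36803 to 38674), which belongs to the chromatin remodelling complex SWI/SNF, had 13.1, 19.8 and 10.9% left in the deletion, against 1.4, 0.586 and 1.55% in wild type (log2 difference 2.83, SE 0.35, limma adjusted p 0.119). LRS4 (YDR439W, chromosome IV, 1339676 to 1340719), of the monopolin complex, had 6.23, 17.4 and 10.7%, against −0.742, 0.178 and −0.837% (log2 difference 3.45, adjusted p 0.119). In both, every deletion culture was far above every wild type one, on libraries with as few as 236 and 222 reads and as few as 1 converted T base. ACF4 and PPM1, with adjusted p of 0.383 and 0.598, had wild type values all below 0, down to −13.9 and −7.44% in culture 1. TDH1, with 1953 or more reads in each library, had a log2 difference of 0.43 (SE 0.07, adjusted p 0.383), a ratio of means of 1.37.

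Several of the transcripts with most label left lay on the higher side in the deletion. Over all 3528 genes, 268 (7.60%) had all 3 deletion cultures above all 3 wild type ones. Of the 12 highest genes this held for TDH1, IPP1, RPL41B, RPL41A and TDH3. After TDH1 these were at 1.38, 1.19, 1.27 and 1.14 times wild type, with limma adjusted p between 0.726 and 0.741. The rest of the 12, HAP1, SWC5, TEF2, FPR1, EFT1, RPS14A and RPS25A, overlapped between genotypes. ENO2, CDC19 and RPL1A, outside the 12, were also above in all 3 cultures. RPL28 (YGL103W, chromosome VII, 310967 to 311927), a ribosomal protein gene whose unspliced transcript is a known NMD substrate, was lower in the deletion. The counts per gene window do not separate its unspliced from its spliced transcript, so they do not describe the substrate alone. It had 11.9, 9.77 and 10.1% left in the deletion, against 12.9, 13.2 and 13.8% in wild type, without overlap (log2 difference −0.31, SE 0.11, adjusted p 0.741). Label left at time 17.9 was 32.0, 28.7 and 27.7% in the deletion at the median gene, against 26.7, 24.2 and 25.2% in wild type, and how far this earlier difference accounts for values at the end was not tested.

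**Figure D5:**
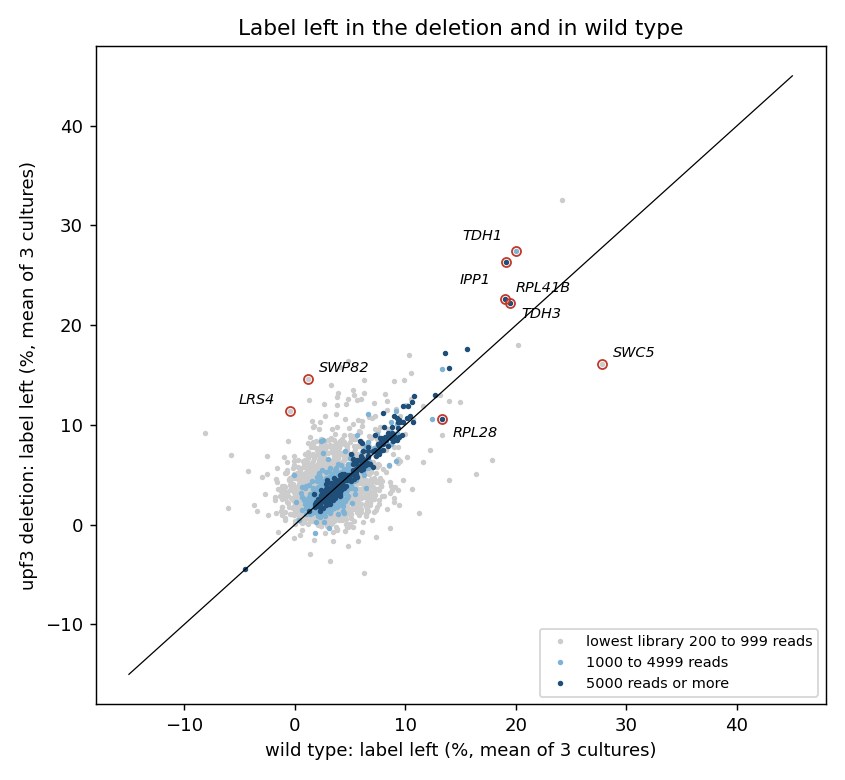
Mean label left of 3 upf3 deletion cultures (y axis) against that of 3 wild type cultures (x axis), both in percent of time 0, for 3528 genes coloured by the reads in their poorest library; the line marks equal values. Most genes with 5000 reads or more lie near the line. Of these, IPP1, RPL41B and TDH3 are above it and RPL28 below it. TDH1, with 1953 reads in its poorest library, is also above it. The widest scatter, SWP82, LRS4 and SWC5 included, is in genes with fewer than 1000 reads.

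Known NMD substrates, with 18 of 26 measured, had a median of 3.28%, and 15 were above that of all genes. Within cultures the list's median was 4.96, 3.82 and 3.71% in the deletion, against 3.66, 3.19 and 3.45% in wild type. All 3 deletion values were above, in a comparison where the median of all genes in deletion culture 1 was also the highest. The median log2 difference of its genes was 0.05, against 0.06 over all genes, none passed the adjusted test and 2 were higher and 1 lower at an unadjusted p under 0.05. RPL28 (11.9%, spliced and unspliced transcripts counted together) and SER3 (7.34% ± 2.31), a serine synthesis enzyme, were its highest members. SSY5 and STN1 were its lowest. STN1, a telomere cap protein whose mRNA is known to be held down by NMD, had 5.21, 1.16 and 5.82%, against −2.93, 2.0 and −0.174%, with overlap. Of 5 NMD factors, 3 were measured. NAM7 had −1.12, 2.60 and 1.78%, against 0.495, 6.95 and 0.522%, NMD2 had 3.54, 2.55 and 1.83%, against −6.69, 7.45 and 0.426%, and NMD4 had 3.23% ± 0.911. In NAM7 and NMD2 the wild type cultures spread around the deletion ones.

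Ribosomal proteins had 3 genes higher and 1 lower at an unadjusted p under 0.05, of 137, and a median log2 difference of −0.01. Glycolytic genes had 2 higher and none lower of 19, with a median of 0.18, and ribosome biogenesis genes 1 higher and 2 lower of 79, with −0.09. Over all genes the shares were 4.73% higher and 1.84% lower. RCL1, an endonuclease of ribosomal RNA processing, had 1.63, 1.72 and 1.39%, against 4.32, 9.75 and 5.55% (log2 difference −1.48, SE 0.38, limma adjusted p 0.614). SSA4, a stress-induced Hsp70 gene, had 9.49, 8.56 and 11.1%, against 4.23, 3.57 and 6.91% (log2 difference 0.90, SE 0.25, adjusted p 0.666). Neither overlapped between genotypes, and their poorest libraries had 287 and 223 reads.

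At the edge of the read minimum, the genes just inside, AAP1 and CBT1 with 200 reads in their poorest library, had means of 1.81 and 6.74%. Those just outside, RSC1 and VID30 with 199, had 4.77 and 3.97%.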

How the data were processed

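Per the labels' protocols, alkylated total RNA went into QuantSeq 3′ FWD libraries, so reads mark 3′ ends. The deposited tables hold counts per gene window (reads, multi-mapping reads, covered and converted T bases). Build R64 is named in the submitters' processing notes, while tool versions, settings and strand handling were not given in the sources used here. The authors' conversion rate, a fraction of T bases, equals converted over covered T. Of 5560 identifiers, 5558 matched a RefSeq locus tag (build R64), the source of symbols and coordinates.

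For each gene and culture the DMSO rate was subtracted from the rates at time 0 and at the last chase point, and their ratio taken as a percentage. Genotypes were compared with limma 3.58.1 (R 4.3.3, log2 of the ratio plus 1 percentage point, negative ratios set to 0). They were also compared with edgeR 4.0.16 on converted T with covered T as offset, without subtraction of the DMSO rate. Culture medians were compared with an exact permutation test, and limma was tested on simulated data. Adjusted p values are Benjamini-Hochberg, two-sided, threshold 0.05. Tables and figures used Python 3.11.15, pandas 2.3.3 and matplotlib 3.10.9.

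Named genes were the 12 highest by lowest culture, the 12 lowest by highest culture, the 5 lowest p (none passed), the 2 highest and 2 lowest of each list, 8 stability standards and 2 genes on each side of the read minimum; others were chosen after their values were seen. Not every gene this rule names is printed, since some lists are given by count and median alone, and 1 gene is not reported here. The members and the 33 gene lists were chosen with earlier results of these data known. P-values measure the spread between these cultures. Alternatives covered the read minimum, background subtraction, reads with T>C, scaling by reads, background and multi-mapping limits, centring, pseudocount, replicates left out and a replicate block.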

Additional observations from a re-analysis of the deposited data

How the results depend on the processing

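No gene passed the adjusted test in either direction under any of 12 alternatives or with any culture left out (lowest limma or edgeR adjusted p 0.0705), with 33 to 250 genes higher and 15 to 87 lower at an unadjusted p under 0.05. The difference in the median gene between deletion and wild type, 0.207 percentage points, changed sign with a minimum of 1000 reads (−0.0339), without deletion culture 1 (−0.0151) and with cultures 2 and 3 of each genotype only (−0.122, chosen after seeing the data), and leaving out each culture in turn gave −0.0151 to 0.332. The number of genes in the highest 5% in every culture used, 21, was 13 with a minimum of 50 reads, 12 after multiplying by the change in reads and 42 with cultures 2 and 3 only. Leaving out each culture gave 21 to 32, the highest without wild type culture 1, and fewer cultures make the condition easier to meet. No gene was in the lowest 5% in all cultures used under any of 8 alternatives or with any culture left out. The 11 lists with a median above that of all genes became 8 to 16, or 11 to 12 with a culture left out. Of the 12 highest genes, 7 to 12 were again among the 12 highest under each alternative, and of the 12 lowest 1 to 12. A minimum of 1000 reads removes all of the 12 lowest but SPO24, and HAP1 and SWC5 of the 12 highest, so its overlap decides nothing. Of the 12 lowest, 3 returned without DMSO subtraction and 1 with cultures 2 and 3 only, so at this depth the order at the low end was not fixed. Over genes, cultures of the same number did not deviate together (correlations of 0.02, −0.01 and −0.02), and those of unlike number had −0.02 to 0.03. Gene values repeated poorly between cultures (rho 0.15 to 0.39 over all genes), so these correlations cannot decide whether the numbers pair the cultures. In both genotypes culture 1 had the widest spread. With a replicate block the median difference stayed at 0.207 (sign-flip p = 1.00, an exact test over 3 pairs that cannot go below 0.25). With that block limma called 0 and 0 genes, with 150 and 59 unadjusted.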
